A study of Mus musculus with 23 samples.

Results

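The respiratory chain genes were followed here in mRNA taken from tagged ribosomes of striatal neurons, and genes encoded in the nucleus were set against transcripts encoded on mitochondrial DNA (mtDNA). The members were all genes on the array whose symbol names a subunit of complex I (NDUF), complex II (SDHA to SDHD), complex III (UQCR, CYC1), complex IV (COX4 to COX8) or complex V (ATP5), together with every transcript whose symbol begins with MTDNA. These were 94 genes of 30854 gene symbols, measured by 132 of 45281 probes. Of them 82 were nuclear genes with 120 probes, and 12 were mtDNA transcripts with 12 probes. The symbols also took in NDUFAF1 and NDUFA12L, assembly factors of complex I, and COX4NB, COX7A2L, ATP5S and ATP5SL, which are named after subunits.

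All mice were C57BL/6J/Swiss-Webster, carried a bacterial artificial chromosome (Bac) that expresses the ribosomal protein L10a fused to EGFP, received a unilateral 6-OHDA lesion of the dopamine projection at 35 days of age, and were 71 days old at tissue collection. The DRD1A promoter (line CP73) drove the fusion protein in medium spiny neurons (MSNs) of the direct pathway and the DRD2 promoter (line CP101) in MSNs of the indirect pathway. The DRD2 promoter is also active in cholinergic interneurons. Chronic LDOPA was 6 mg/kg with benserazide at 15 mg/kg, 2 times a day for 21 days. Acute LDOPA was saline over the same period, and every mouse of all 4 groups received LDOPA with benserazide on day 22, 40 min before the striatum of the lesioned side was taken. There was thus no group without LDOPA and none without a lesion. The labels put 7 arrays in DRD1A acute LDOPA and 8 in DRD1A chronic LDOPA. Each of the DRD2 groups had 4. The study's text gives other sizes for DRD2 acute and DRD1A chronic LDOPA, and the labels were followed. TRAP was run on each mouse striatum separately, but the labels name no mouse, so p-values measure the spread between these samples. Arrays are named by BeadChip and position. Arrays 1D and 3A, both DRD2 with chronic LDOPA, correlated at 0.990, where the next closest of the 253 pairs correlated at 0.928. They were averaged into 1 sample, which left 22 samples and n = 3 in that group.

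The respiratory chain passes electrons from NADH and succinate to oxygen through complexes I to IV, and complex V uses the resulting proton gradient to make ATP. Most subunits are encoded in the nucleus, translated on cytosolic ribosomes and imported, while a small set of core subunits is encoded on the circular mtDNA, transcribed as long precursors and translated on ribosomes inside the mitochondrion. L10a is a protein of the cytosolic ribosome, so the tag is not part of the ribosome that carries mtDNA transcripts. Complexes I, III, IV and V combine both kinds of subunit, and complex II is nuclear throughout. In striatal MSNs this chain supplies most of the ATP that ion pumping uses.

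Translating ribosome affinity purification (TRAP) was followed by amplification and hybridization to Illumina BeadChips. Levels below are quantile-normalized log2 signals, on which a difference of 1 is a doubling. Between 13114 and 17443 probes per array had a detection p under 0.05. Precision is limited by how few arrays there are, above all for DRD2. DRD2 itself had a level of 7.11 to 7.76 in the 15 DRD1A samples and of 9.95 to 11.46 in the 7 DRD2 samples. Of 10 markers shared by all MSNs, 8 were detected on every array. The 9 tested had a median DRD1A minus DRD2 difference of −0.40 after acute and −0.37 after chronic LDOPA. None was called, and 1 and 2 of the 9 were above 0. DRD1A overlapped between the lines, at 8.12 to 10.35 in DRD1A samples and 7.12 to 9.28 in DRD2 samples. Over 9 direct pathway markers, DRD1A included, the median difference was 1.36 after acute and 1.16 after chronic LDOPA. Each time 8 were above 0, with 4 and 0 called higher. Over 8 indirect pathway markers, DRD2 included, it was −0.87 and −1.06, with 0 and 1 above 0 and 3 and 1 called lower. The DRD2 chronic LDOPA sample 1A had the highest DRD1A level (9.28) and the lowest DRD2 level (9.95) of its line. BeadChips were not balanced over groups. BeadChip 1 held only DRD1A acute and DRD2 chronic LDOPA arrays. The lowest signal of an array was 65.1 to 70.3 on BeadChip 1 and 94.0 to 121.6 elsewhere.

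After the filter on dim probes (signal above the 20th percentile on every array of at least 1 group), 110 nuclear probes of 79 genes and all 12 mtDNA probes were tested among 32255 probes. The nuclear probes that did not pass were 10 in number, and the 3 nuclear genes without any probe left were COX7A1, COX8B and COX8C. Of the 82 nuclear genes, 68 had a probe detected on all 23 arrays, against 8 of the 12 mtDNA transcripts. In bulk samples of this kind, fewer cells of a type and less RNA per cell cannot be told apart.

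COX5A and NDUFA3 were the only members called as varying among the 4 groups. COX5A, a nuclear subunit of complex IV, had an adjusted p of 0.0343 in limma's moderated F test with Benjamini-Hochberg adjustment over all probes tested. NDUFA3, an accessory subunit of complex I, had an adjusted p of 0.0482 by 1 of its 2 probes. Over all probes tested, 0.295% passed this test, against 2 of the 110 nuclear probes and none of the 12 mtDNA probes. MTDNA_ND2 and MTDNA_ND3 came closest of the mtDNA probes, with adjusted p of 0.0618 and 0.0785 in the F test. At an unadjusted p under 0.05, the moderated F test took in 34 of 110 nuclear probes and 10 of 12 mtDNA probes, against 10% of all probes. Brighter probes passed more often. Of the 10716 probes at least as bright as the dimmest mtDNA probe, 2039 passed at that unadjusted p and 84 at the adjusted threshold.

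In the DRD1A acute LDOPA group, COX5A ranged from 10.77 to 11.12 with a median of 10.94. In the DRD1A chronic LDOPA group it ranged from 10.67 to 11.10 with a median of 10.88. The DRD2 acute LDOPA samples had 10.69, 10.56, 10.52 and 10.57, and the DRD2 chronic LDOPA samples 10.49, 10.43 and 10.64. Every DRD1A sample was thus above every DRD2 sample after acute LDOPA. After chronic LDOPA the absence of overlap rested on the averaged sample, whose arrays read 10.10 (1D) and 10.76 (3A), since 3A alone lay above 2 of the DRD1A samples. The difference between the lines was 0.37 ± 0.08 (standard error) after acute LDOPA, or 1.29-fold, with an adjusted p of 0.0715 from limma's contrast. After chronic LDOPA it was 0.36 ± 0.09, or 1.28-fold, with an adjusted p of 0.237. Chronic LDOPA differed from acute LDOPA by −0.08 ± 0.07 in DRD1A and −0.06 ± 0.10 in DRD2.

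The 2 probes of NDUFA3 differed in how firmly they separated the groups. By probe 6330477, the levels of NDUFA3 ranged from 10.003 to 10.59 (median 10.19) in DRD1A acute and from 10.13 to 10.77 (median 10.61) in DRD1A chronic LDOPA. The DRD2 acute samples had 10.13, 9.75, 9.81 and 9.84, and the DRD2 chronic samples 10.04, 9.91 and 10.16. The lines overlapped by a single sample on each side: 6 of 7 DRD1A acute samples lay above every DRD2 acute sample, and 7 of 8 DRD1A chronic samples above every DRD2 chronic sample. The line difference of this probe was 0.37 ± 0.12 after acute LDOPA (adjusted p = 0.310 from limma) and 0.49 ± 0.13 after chronic LDOPA (adjusted p = 0.307). Probe 4830187 of NDUFA3 gave differences of like size, 0.37 ± 0.24 and 0.41 ± 0.26, with a within-group standard deviation of 0.39 against 0.20, and its adjusted p in the F test was 0.499. The F test calls of both genes were lost with the BeadChip as a block (adjusted p of 0.0855 for COX5A and 0.0875 for probe 6330477 of NDUFA3) and without BeadChip 1 (0.347 and 0.139). Over the 12 alternatives that left out no single array, their adjusted p ran from 0.0345 to 0.347 and from 0.0230 to 0.139.

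**Figure D1:**
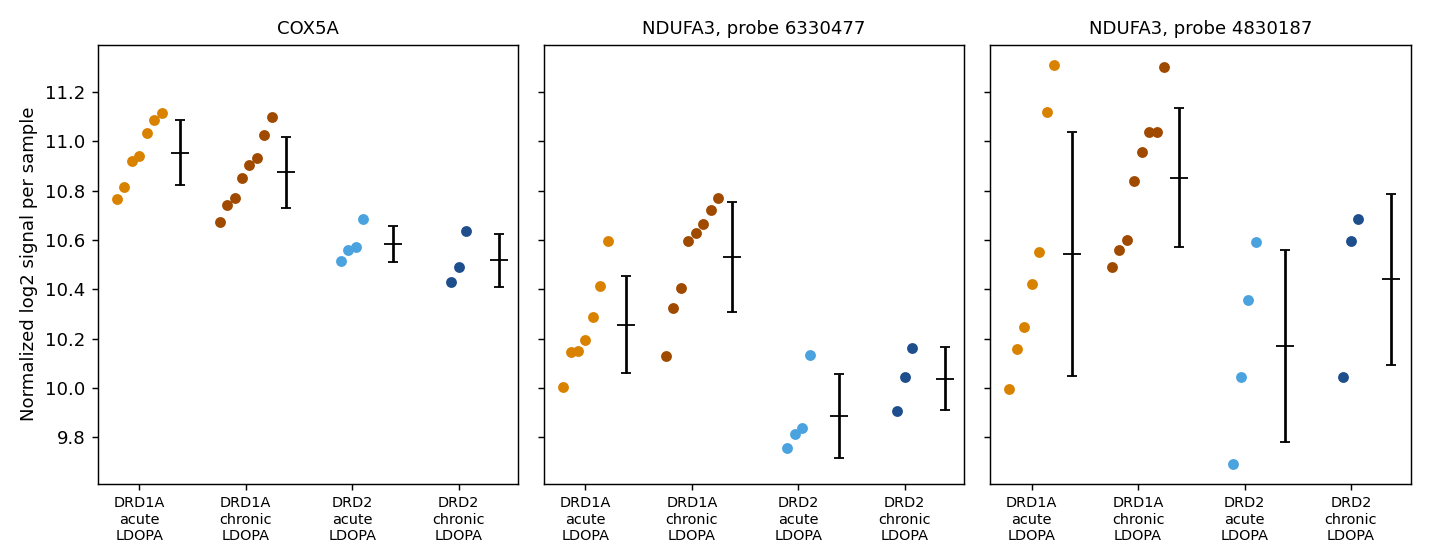
Normalized log2 signal of COX5A and of the 2 probes of NDUFA3 in each of the 22 samples, by group; points are samples and bars are the group mean ± SD. For COX5A every DRD1A sample lies above every DRD2 sample after acute LDOPA, and after chronic LDOPA they do so with arrays 1D and 3A averaged as plotted. For probe 4830187 of NDUFA3 the groups overlap over most of their range.

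The regulatory sequence upstream of these 2 genes is shown because they were the members called in the F test. That of Atp5l is shown because it was among the nuclear genes with the largest acute line difference and holds a searched motif. Each is the 250 bases before the annotated start in RefSeq (GRCm38.p6): Cox5a at chr9:57520982-57521231 on the plus strand, Ndufa3 at chr7:3617123-3617372 on the plus strand and Atp5l at chr9:44920743-44920992 on the minus strand. Capitals mark either of 2 searched motifs on either strand: GCATGCGC, the core of the site of NRF1, a transcription factor of respiratory genes, and CCGGAAGT, a site of ETS family factors.
Cox5a: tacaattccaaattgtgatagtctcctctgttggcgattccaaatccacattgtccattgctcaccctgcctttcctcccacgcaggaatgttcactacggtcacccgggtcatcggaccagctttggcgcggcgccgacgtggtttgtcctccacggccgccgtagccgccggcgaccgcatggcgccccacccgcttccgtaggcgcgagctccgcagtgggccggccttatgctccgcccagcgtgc
Ndufa3: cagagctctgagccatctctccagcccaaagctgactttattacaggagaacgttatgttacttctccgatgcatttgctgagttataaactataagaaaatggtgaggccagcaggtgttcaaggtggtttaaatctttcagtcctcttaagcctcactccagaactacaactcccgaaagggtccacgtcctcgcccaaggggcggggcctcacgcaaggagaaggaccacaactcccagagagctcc
Atp5l: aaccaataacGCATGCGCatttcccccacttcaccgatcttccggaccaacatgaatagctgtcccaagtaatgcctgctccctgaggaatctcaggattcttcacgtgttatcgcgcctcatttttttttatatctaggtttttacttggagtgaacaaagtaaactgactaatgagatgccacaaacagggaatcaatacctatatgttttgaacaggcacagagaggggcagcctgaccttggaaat
The windows of Cox5a and Ndufa3 held neither motif, and that of Atp5l held GCATGCGC. Of the 82 nuclear genes, 61 matched a RefSeq promoter by symbol, with 66 promoters. GCATGCGC stood in 8 of the 66 (12.1%), against 2.26% of all 32851 promoters, and CCGGAAGT in 2 of the 66 (3.03%), against 2.88%. The 8 were those of Atp5g2, Atp5k, Atp5l, Cox6a1, Ndufa11, Ndufa6, Ndufa8 and Sdhb. The CCGGAAGT windows were those of Atp5h and Uqcrh, so that no window held both motifs, and a match is a string of letters, not a measured site.

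After acute LDOPA, mtDNA transcripts were lower in DRD1A than in DRD2 samples by a median of 1.69 on the log2 scale, while nuclear members were higher by a median of 0.14. No member passed the adjusted threshold in this comparison, where 0.158% of all probes did. At an unadjusted p under 0.05, all 12 mtDNA probes were lower in DRD1A, against 5.34% of all probes, and 21 of 110 nuclear probes were higher, against 3.76%, with 2 nuclear probes lower. The median over all probes tested was −0.01. The mtDNA differences ran from −2.12 for MTDNA_CYTB to −0.88 for MTDNA_ND5, which is 4.35-fold to 1.84-fold lower, with adjusted p from 0.0617 to 0.506 in limma's contrast.

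MTDNA_ND2, a core subunit of complex I, was the mtDNA transcript with the clearest separation by sample. It ranged from 7.48 to 8.74 with a median of 7.90 in the DRD1A acute LDOPA group. The DRD2 acute LDOPA samples had 9.07, 10.21, 10.53 and 9.62. Every DRD1A sample was below every DRD2 sample, by −1.81 ± 0.39 (95% interval −2.64 to −0.99), or 3.52-fold, with an adjusted p of 0.0730 from limma. The same held for MTDNA_ND3, another subunit of complex I, whose DRD1A acute samples ranged from 7.18 to 7.50 (median 7.32) and whose DRD2 acute samples had 8.28, 8.45, 8.48 and 7.79. Its difference was −0.94 ± 0.20, with an adjusted p of 0.0617, and it was detected on only 4 of 7 DRD1A acute arrays. These were 2 of 12 mtDNA probes without overlap in this direction, against 0.707% of all probes.

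For the other 10 mtDNA transcripts the lines overlapped after acute LDOPA. MTDNA_CYTB, the cytochrome b subunit of complex III, ranged from 8.16 to 12.55 in DRD1A (median 10.82) and had 12.86, 13.04, 13.66 and 12.18 in DRD2. Only 1 DRD1A sample lay inside the DRD2 range, and the difference of −2.12 ± 0.75 had an adjusted p of 0.367. MTDNA_COXIII, a core subunit of complex IV, ranged from 8.69 to 11.53 in DRD1A and had 11.93, 12.18, 12.25 and 10.02 in DRD2. Here the DRD2 sample 4E stood below 3 of the DRD1A samples, and the difference of −1.66 ± 0.74 had an adjusted p of 0.506. MTDNA_ND5 had the smallest difference, −0.88 ± 0.34, with 10.23 to 11.50 in DRD1A and 11.45, 11.90, 12.19 and 11.14 in DRD2.

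Complexes were assigned by gene symbol alone, so that they take in the assembly factors and other genes named at the outset. By complex, the 7 mtDNA probes of complex I had a median line difference of −1.72 after acute LDOPA against 0.20 for the 51 nuclear probes. MTDNA_CYTB had −2.12 against a nuclear median of −0.02 in complex III (8 probes). MTDNA_COXII and MTDNA_COXIII of complex IV had −1.72 and −1.66 against 0.05 over 19 nuclear probes, and MTDNA_ATP6 and MTDNA_ATP8 of complex V had −1.65 and −1.53 against 0.19 over 25. Complex II, with nuclear subunits only, had a median of 0.14 over 7 probes. All 12 mtDNA transcripts therefore lay below the nuclear median of their own complex. These probes are not independent of each other. On all 12, the same 6 DRD1A samples were among the 8 highest of 15. The 12 lower probes are therefore not 12 separate results. In the annotation ATP8 and ATP6 overlap, ND4L and ND4 overlap, and ND5 and ND6 overlap on opposite strands, so that signal may be shared within each pair, and 12 of the 13 protein-coding genes of mtDNA were on the array, COX1 not among them.

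**Figure D2:**
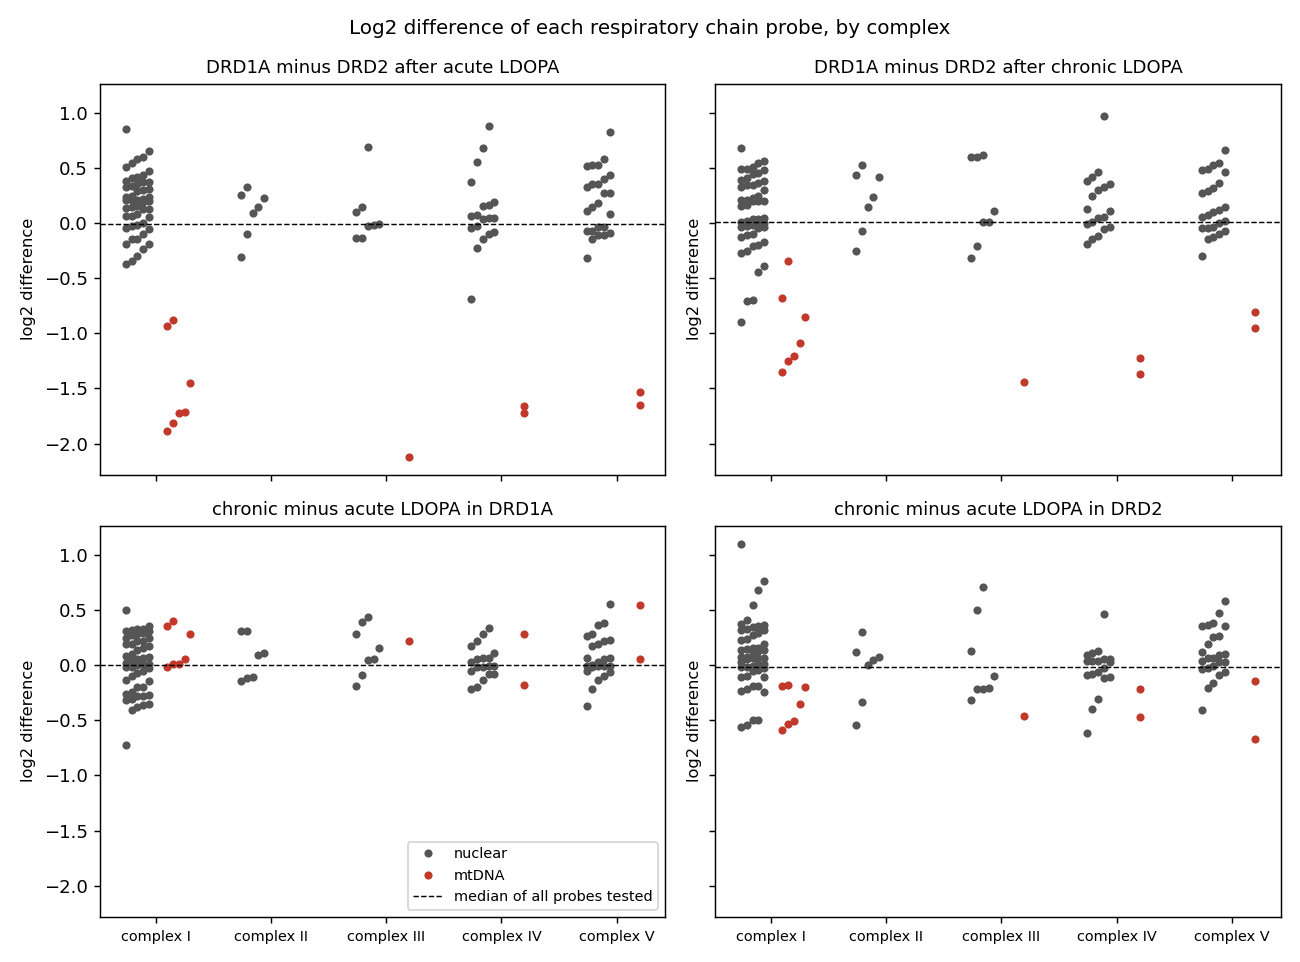
Log2 difference of each of the 122 respiratory chain probes tested in 4 comparisons, by complex, with nuclear probes in grey and mtDNA probes in red; the dashed line is the median of all 32255 probes tested. In the line comparisons the mtDNA probes lie below 0, from −2.12 to −0.88 after acute LDOPA and from −1.44 to −0.34 after chronic LDOPA.

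After chronic LDOPA the mtDNA transcripts were again lower in DRD1A by a median of 1.15 and nuclear members higher by a median of 0.11, against 0.01 over all probes. None was called, where 0.0279% of all probes were. At an unadjusted p under 0.05, only MTDNA_ND2 of the 12 mtDNA probes was lower, against 3.67% of all probes, and 23 of 110 nuclear probes were higher, against 2.47%, with 3 lower. MTDNA_ND2 ranged from 7.19 to 8.95 (median 8.08) in DRD1A chronic LDOPA and had 9.47, 10.28 and 8.29 in DRD2. The DRD2 sample 4A lay inside the DRD1A range, and the difference was −1.25 ± 0.43 with an adjusted p of 0.544 from limma. No mtDNA probe separated the lines without overlap here, where 0.732% of all probes had every DRD1A sample below every DRD2 sample. The 95% interval of the difference included 0 for 11 of the 12, for MTDNA_CYTB from −3.14 to 0.25.

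Both DRD2 group means were above both DRD1A group means for all 12 mtDNA transcripts. The order of the mean levels was DRD2 acute above DRD2 chronic for all 12, and DRD1A chronic above DRD1A acute for 10 of 12, but no difference between these neighbouring groups was called. At an unadjusted p under 0.05 only MTDNA_ND3 differed, between the DRD2 groups (−0.58 ± 0.24, adjusted p = 0.738 from limma). In MTDNA_CYTB, the group means were 12.94 ± 0.61 (SD, n = 4) for DRD2 acute, 12.48 ± 0.73 (n = 3) for DRD2 chronic, 11.04 ± 1.25 (n = 8) for DRD1A chronic and 10.81 ± 1.56 (n = 7) for DRD1A acute LDOPA. MTDNA_ND4 had 11.35 ± 1.28, 11.16 ± 0.90, 9.82 ± 1.11 and 9.47 ± 1.21 in the same order. These are means over samples that lay far apart within each group.

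**Figure D3:**
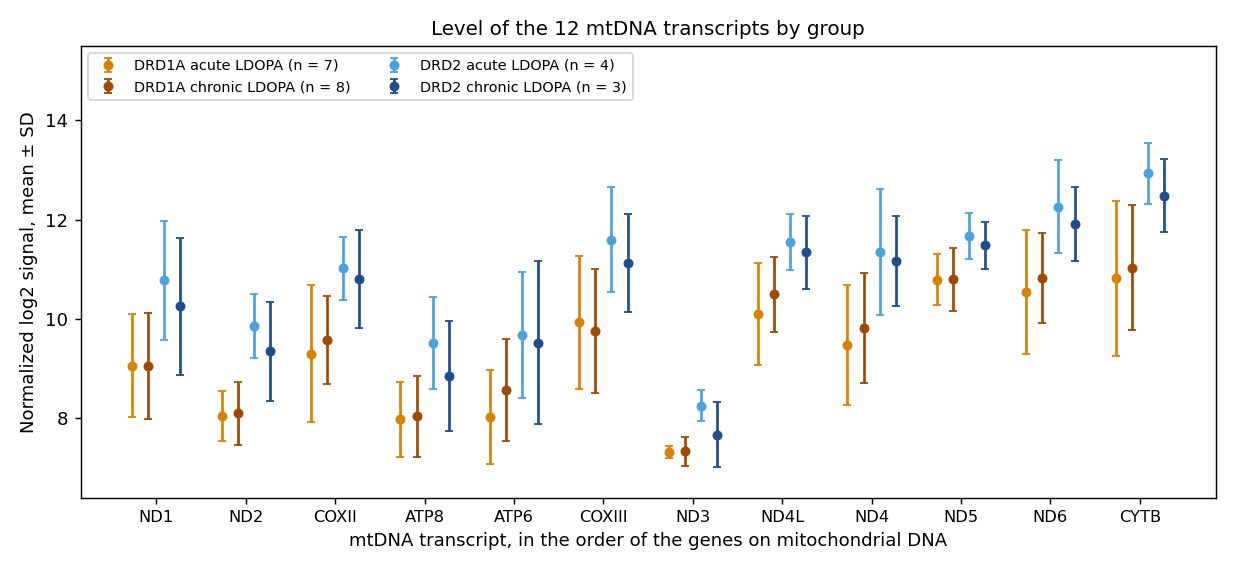
Normalized log2 signal of the 12 mtDNA transcripts, mean ± SD over the samples of each group, ordered as the genes lie on mtDNA. In all 12 both DRD2 means lie above both DRD1A means, and the error bars of the groups overlap for most transcripts after chronic LDOPA.

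The spread within groups set the mtDNA transcripts apart from the nuclear members. The median within-group standard deviation was 1.04 over the 12 mtDNA probes, 0.32 over the 110 nuclear probes and 0.21 over all probes tested, or 0.49 over the 10716 probes at least as bright as the dimmest mtDNA probe. In 9 of 12 mtDNA probes it exceeded the largest value of any nuclear probe (0.79).

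**Figure D4:**
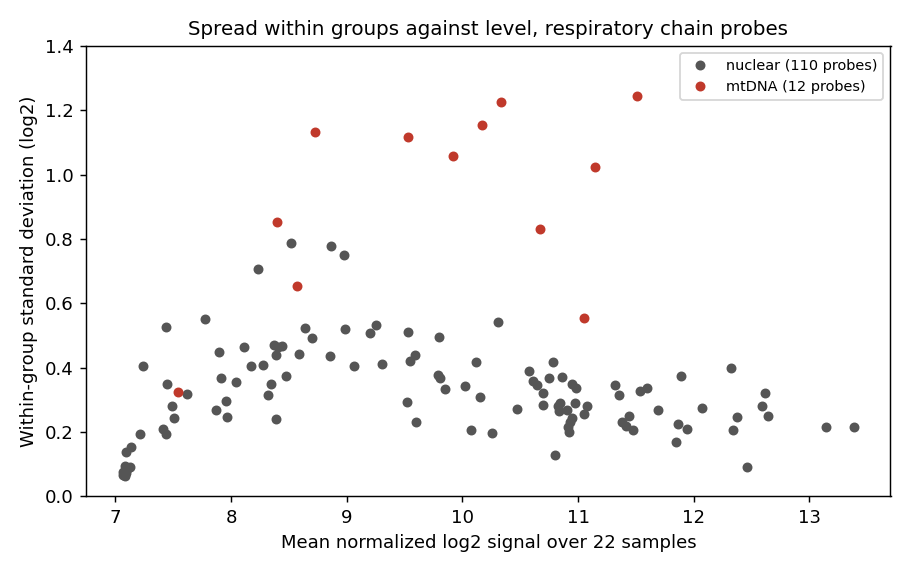
Within-group standard deviation of each respiratory chain probe tested (log2 scale) against its mean normalized log2 signal over 22 samples, nuclear probes in grey and mtDNA probes in red. The mtDNA probes have a median spread of 1.04 and the nuclear probes of 0.32, over overlapping ranges of level.

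Sample by sample, the median level of the 12 mtDNA transcripts covered 7.93 to 11.95, while the median level of the 79 nuclear genes (brightest probe of each) stayed between 9.90 and 10.78. In DRD1A acute LDOPA the mtDNA median was lowest at 7.93, 8.91 in the middle and highest at 10.95. In DRD1A chronic LDOPA it was 8.59, 9.18 and 11.08. In DRD2 acute LDOPA it was 11.20, 11.66, 11.95 and 9.82, and in DRD2 chronic LDOPA 11.31, 11.65 and 9.85. The 6 DRD1A samples 1B, 1F, 3B, 3C, 4C and 4D had medians from 10.41 up and the other 9 had at most 9.55, while the DRD2 samples 4E and 4A stood apart below the rest of their groups. These 6 were chosen from the medians, and they were the 6 highest DRD1A samples on 4 of the 12 mtDNA probes. On all 12 probes they were among the 8 highest of the 15 DRD1A samples. The nuclear medians ranged from 10.25 to 10.68 in DRD1A acute, from 10.25 to 10.78 in DRD1A chronic, from 9.90 to 10.46 in DRD2 acute and from 10.04 to 10.49 in DRD2 chronic LDOPA, and all 4 groups overlapped.

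**Figure D5:**
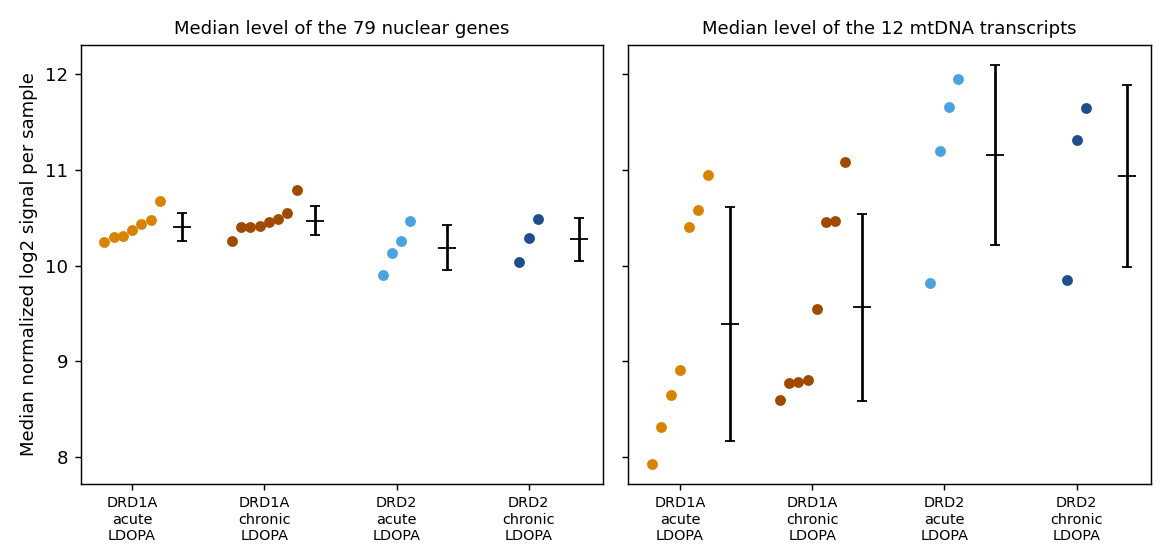
Median normalized log2 signal per sample of the 79 nuclear respiratory chain genes and of the 12 mtDNA transcripts, by group; points are the 22 samples and bars the group mean ± SD. Nuclear medians lie between 9.90 and 10.78 in every group, and mtDNA medians spread from 7.93 to 11.95 with DRD2 samples at the upper end except 4E and 4A.

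The nuclear minus the mtDNA median difference was 1.85 between the lines after acute LDOPA and 1.29 after chronic LDOPA, and −0.10 and 0.47 between treatments in DRD1A and DRD2. Within BeadChips that held both lines, the mtDNA median of the acute comparison was −2.74 on BeadChip 2, −1.59 on BeadChip 3 and −1.01 on BeadChip 4, with all 12 transcripts lower in DRD1A each time. Each of these values rested on 1 DRD1A array, against 2 DRD2 arrays on BeadChip 2 and 1 on BeadChips 3 and 4. In the chronic comparison the mtDNA median was −2.21 on BeadChip 3, again with all 12 lower. It was 0.62 on BeadChip 4, where none was lower. Both chronic values set 3 DRD1A arrays against 1 DRD2 array, 3A on BeadChip 3 and 4A on BeadChip 4. BeadChip 1 held both lines under different treatments only and gives no such value.

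Markers of other cell types and nuclear RNAs were measured beside these members. Oligodendrocyte markers had a median line difference of −0.42 after acute and −0.54 after chronic LDOPA over 10 genes, none called, all 10 being detected on at least 1 array. Their summed level (log2 of the summed signal) was 11.97 to 13.10 in DRD1A acute, 11.86 to 13.31 in DRD1A chronic, 12.63 to 13.24 in DRD2 acute and 12.28 to 13.84 in DRD2 chronic LDOPA. The 4 symbols of nuclear noncoding RNAs, of which GTL2 and MEG3 name the same gene, had medians of −0.61 and −0.24, and their summed level was 10.16 to 11.55, 10.20 to 10.99, 10.93 to 11.76 and 11.07 to 11.86 in the same order. Markers of cortical excitatory neurons lay the other way, with medians of 0.61 and 0.46 over 7 genes and summed levels of 11.55 to 12.35, 11.56 to 11.96, 10.51 to 11.32 and 10.89 to 11.69. Summed astrocyte markers overlapped over all 4 groups (11.50 to 12.41, 11.59 to 12.15, 11.57 to 11.83 and 11.67 to 12.78), as did those of microglia, of which C1QA and ITGAM were detected on no array. Of the endothelial markers ENG, FLT1, TEK and VWF were detected on no array. Among interneuron markers CCK was called higher in DRD1A after acute LDOPA (1.36 ± 0.23, adjusted p = 0.0202 from limma), the only call in these lists. The 10 interneuron markers had medians of 0.32 and 0.13, with 6 and 7 above 0. Their summed level was 11.37 to 11.70 in DRD1A acute and 10.93 to 11.21 in DRD2 acute LDOPA, without overlap, and 11.11 to 11.93 and 10.87 to 11.60 in the chronic groups. The cortical sums above also did not overlap between the lines after acute LDOPA, nor did the nuclear noncoding sums after chronic LDOPA. How often such sums separate the lines was not counted. Whether these RNAs bear on the mtDNA difference was not tested.

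Among the nuclear members the line differences after acute LDOPA were small beside those of mtDNA. Of 95 nuclear probes detected on every array of a group compared, 20 were higher in DRD1A at an unadjusted p under 0.05 and none lower, against 8.55% and 7.06% of the 10132 probes detected in the same way. Their median was 0.19, against 0.02. COX7A2L, a factor in the assembly of respiratory supercomplexes, had the largest difference (0.88 ± 0.33), followed by NDUFA5 of complex I by probe 6560152 (0.85 ± 0.26), ATP5L, a membrane subunit of complex V, by probe 1300341 (0.83 ± 0.25), and UQCRH, the hinge protein of complex III (0.69 ± 0.27). Their adjusted p lay between 0.250 and 0.423 in limma's contrast. COX4I1, the ubiquitous form of complex IV subunit 4, had 0.55 ± 0.14 (adjusted p = 0.145), and ATP5D, the delta subunit of complex V, 0.51 ± 0.14 (adjusted p = 0.190).

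By sample, ATP5L ranged from 9.22 to 9.98 (median 9.66) in DRD1A acute LDOPA and had 9.13, 8.83, 8.74 and 8.60 in DRD2 acute LDOPA. There was no overlap, and its second probe 5870446 had a difference of 0.52 ± 0.15. COX4I1 ranged from 11.34 to 11.73 (median 11.49) in DRD1A acute and had 11.16, 10.92, 11.34 and 10.45 in DRD2 acute LDOPA, where 1 DRD2 sample reached the lowest DRD1A sample. In all, 4 of 110 nuclear probes (ATP5L, COX5A, NDUFA5 and UQCRH) had every DRD1A sample above every DRD2 sample, against 0.784% of all probes, and none the reverse. For NDUFA5 this was probe 6560152. Its brighter probe 3850307 overlapped, with 10.41 to 11.12 in DRD1A acute and 10.46, 10.70, 10.68 and 10.52 in DRD2 acute LDOPA.

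After chronic LDOPA, 8 of 110 nuclear probes separated the lines in that direction (ATP5G2, ATP5H, COX5A, NDUFA2, NDUFB9, NDUFS4, UQCRC2 and UQCRFS1), against 0.992% of all probes. For ATP5H and COX5A this rested on averaging 1D and 3A, since array 3A alone lay inside the DRD1A range. Of 95 nuclear probes detected on every array of a group compared, 22 were higher at an unadjusted p under 0.05 and 3 lower. The shares of the 11480 probes detected in the same way were 4.65% and 6.24%. NDUFB9 of complex I ranged from 10.09 to 10.45 in DRD1A chronic LDOPA and had 9.42, 9.82 and 9.88 in DRD2 chronic LDOPA, a difference of 0.54 ± 0.14 (adjusted p = 0.265 from limma). UQCRC2, a core protein of complex III, ranged from 10.16 to 10.77 and had 9.95, 9.81 and 9.68, a difference of 0.62 ± 0.20 (adjusted p = 0.518). The 4 largest positive differences under the detection rule were COX7A2L (0.97 ± 0.35), NDUFC1 of complex I (0.68 ± 0.29), ATP5G2, a gene of the c ring of complex V (0.66 ± 0.30), and UQCRC2. NDUFA5 by probe 3850307 (−0.71 ± 0.24) and NDUFA10 (−0.39 ± 0.14), both accessory subunits of complex I, lay the other way, with adjusted p of 0.544 and 0.581.

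Between chronic and acute LDOPA no member was called in either line, where 0.0341% of all probes passed in DRD1A and 0.0031% in DRD2. In DRD1A the nuclear median was 0.03 and the mtDNA median 0.14, against 0.00 over all probes. At an unadjusted p under 0.05, 14 nuclear probes were higher after chronic LDOPA, against 3.69% of all probes, and 2 lower, against 4.11%, while no mtDNA probe was in either set. Among those also detected on every array of a group, the largest were NDUFC1 (0.50 ± 0.22), UQCRC2 (0.44 ± 0.15), UQCR (0.39 ± 0.19) and ATP5G3, a c ring gene (0.38 ± 0.16), with adjusted p from 0.450 to 0.635. Over the 95 nuclear probes detected on every array of a group compared, 13 were higher and 2 lower at an unadjusted p under 0.05. The shares of the 9776 probes detected in the same way were 6.43% and 8.87%. This comparison turned on the normalization. With each array centred on its median log2 signal and no quantile step, 14 nuclear members were called higher after chronic LDOPA and none lower. Over all 32255 probes, 247 were then called in this comparison, against 11 with quantile normalization. Over the brightest probe of each gene the nuclear median went from 0.04 to 0.40, while the median over all probes was 0.02. The same step took the nuclear median from 0.14 to 0.35 between the lines after chronic LDOPA and from 0.06 to 0.24 between the treatments in DRD2, with no member called, and from 0.17 to 0.16 between the lines after acute LDOPA.

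NDUFS4, a subunit of complex I, had the smallest p of any member between the treatments in DRD1A, but its 4 probes differed. By probe 6040017 it ranged from 10.59 to 11.19 (median 11.07) after acute and from 9.61 to 10.99 (median 10.26) after chronic LDOPA, with a difference of −0.73 ± 0.17 and an adjusted p of 0.185 from limma. Probe 6840670 had −0.35 ± 0.22, and probes 1300544 and 4490154 had 0.10 ± 0.10 and 0.07 ± 0.14. Of the 24 nuclear genes with over 1 probe tested, 12 had probes of opposite sign in this comparison, against 8 in each line comparison and 9 between the treatments in DRD2. NDUFA8 had −0.28 ± 0.12 by probe 4220519, and with median centering the sign turned. Its dimmer probe 5900242 had the higher mean after chronic LDOPA, with 7.71 to 9.58 after acute and 7.98 to 9.78 after chronic LDOPA.

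In DRD2 the nuclear median was 0.05 and the mtDNA median −0.40 between chronic and acute LDOPA, against −0.01 over all probes. The mtDNA median was 0.09 without sample 4A and −0.10 without sample 3F. The DRD2 acute samples had 13114 to 15212 detected probes and the DRD2 chronic samples 15910 to 16794, without overlap, and the part of this in the treatment differences was not tested. Of the nuclear probes 6 were higher at an unadjusted p under 0.05, against 2.97% of all probes, and 1 lower, against 3.31%. Over probes detected on every array of a group compared, these were 6 and 1 of 95 nuclear probes, against 4.92% and 3.95% of 11660. Of the mtDNA probes only MTDNA_ND3 was lower at an unadjusted p under 0.05. The 2 probes of NDUFA5 had 1.10 ± 0.31 and 0.68 ± 0.27, NDUFV1, which holds the NADH site of complex I, 0.77 ± 0.26, and UQCRH 0.70 ± 0.33. By probe 6560152, NDUFA5 had 9.26, 9.12, 9.02 and 8.17 after acute and 10.74, 9.32 and 9.92 after chronic LDOPA. The lowest chronic value (9.32) lay just above the highest acute value (9.26). The share of all probes without overlap was not counted for this comparison. ATP5J2, a membrane subunit of complex V, had −0.40 ± 0.13, with 11.87, 12.09, 12.17 and 11.72 after acute and 11.39, 11.60 and 11.69 after chronic LDOPA. Adjusted p lay between 0.567 and 0.790 for these genes.

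The treatment effect was not shown to differ between the lines for any member. No probe passed the interaction test (0% of 32255 called), where 5.57% of all probes had an unadjusted p under 0.05, against 11 of 110 nuclear and none of the 12 mtDNA probes. The mtDNA interaction had a median of 0.58, and the interval of MTDNA_CYTB ran from −1.63 to 2.99, so that a difference of over 1 doubling in either direction lay inside it.

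Subunits with tissue forms and those of complex II filled out the picture of levels. Of the 7 tissue isoforms of complex IV, COX4I2, COX6B2 and COX8C were not detected by their brightest probe on any array, COX7A1, COX8B and COX7B2 on 2, 2 and 3 arrays, and COX6A2, the heart and muscle form of subunit 6A, on 11 of 23. COX6A2 had a mean of 7.15 ± 0.16 (SD) in DRD1A acute and 7.83 ± 0.66 in DRD2 acute LDOPA, with an adjusted p of 0.530. Their ubiquitous partners on the array, COX4I1, COX6A1 and 3 others, were detected on every array. For complex II, SDHA had line differences of −0.10 ± 0.31 and −0.26 ± 0.33 after acute and chronic LDOPA, SDHB 0.14 ± 0.25 and 0.24 ± 0.27, SDHC 0.23 ± 0.15 and 0.42 ± 0.16, and SDHD 0.33 ± 0.17 and 0.14 ± 0.18, none called. Among genes with bright probes, COX6C (level 13.39), NDUFB8 (13.15), NDUFA4 (12.62), ATP5K (12.59) and COX5B (12.33) had line differences from −0.15 to 0.33. SDHC (12.64) was also bright and had the 0.23 and 0.42 given above. ATP5H (12.38) was among the probes that separated the lines after chronic LDOPA with 1D and 3A averaged. Brightness differs between probes, so that these levels do not rank transcripts by amount.

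Related genes outside the members had no call in any of the 4 comparisons. The mitochondrial ribosomal proteins, which translate mtDNA transcripts, had median line differences of 0.17 and 0.16 after acute and chronic LDOPA over 72 genes tested, with 45 and 53 above 0. MRPL23 (0.40 ± 0.14) and MRPS24 (1.25 ± 0.45) had the smallest unadjusted p after acute LDOPA. Genes of mtDNA maintenance and expression had medians of 0.15 and 0.03 over 26 genes, with PNPT1, a mitochondrial RNA nuclease, at 0.88 ± 0.41 and 1.32 ± 0.45. Other respiratory chain genes, mostly assembly factors and enzymes of coenzyme Q, had medians of 0.09 and 0.08 over 31 genes, with COX17, a copper chaperone of complex IV, at 0.56 ± 0.16 and 0.44 ± 0.18. Genes of pyruvate dehydrogenase and the citric acid cycle had 0.09 and 0.17 over 16, and regulators of mitochondrial biogenesis −0.12 and −0.14 over 11. Among the regulators ESRRG, an orphan nuclear receptor, had −1.10 ± 0.37 after chronic LDOPA, with an adjusted p of 0.537 from limma.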

How the data were processed

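Expression was measured on Illumina Mouse WG-6 BeadChips (23 arrays on 4 BeadChips), hybridized with amplified TRAP RNA. The deposited intensity values are mean bead signals per probe that the authors exported with no normalization or background subtraction. The deposited detection p-values, bead standard errors and bead numbers come from the same report. The series table holds log2 values deposited by the authors. Their methods name quantile normalization and then median centering, but the table lay within 0.07 of quantile-normalized log2 signals, with medians of 7.12 on every array, so that no centering was seen. It served as an alternative, with its 45281 rows matched to probes by signal rank. The 4 columns of 1 array that belongs to no listed sample were not used. The authors' own filter was the 20th percentile, followed by analysis of variance with Tukey's test.

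Groups came from the labels. With limma 3.58.1 (R 4.3.3), the 23 arrays were quantile normalized, signals under 1 were raised to 1, and log2 was taken. Probes were tested if, in any 1 group, all arrays had a signal over their own 20th percentile (32255 of 45281). Arrays 1D and 3A were averaged. The written design gave this pair as 1D and 4A, a numbering error found when all pairs were correlated, and the pair as written was run as an added alternative. Each probe was fitted with a mean per group, with 18 residual, 1.41 prior and 19.4 total degrees of freedom. Contrasts were two-sided and moderated, as was the F test. Benjamini-Hochberg adjustment ran across every tested probe, and calls needed an adjusted p under 0.05. The fit was tested on simulated data. The brightest probe stands for a gene with several unless a probe is named.

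The members and lists were chosen with earlier results of these data known. The rule named COX5A, NDUFA3, all mtDNA probes, every member called, per comparison the 4 nuclear probes with the largest difference each way among those detected on every array of a group compared and with an unadjusted p under 0.05, the brightest genes per complex, isoforms, c ring and complex II genes, and from other lists those called or with the smallest p. A gene that this rule names is not reported here. COX4I1, ATP5D, NDUFB9 and the sequences shown were added after values were seen. Alternatives were separate arrays, the BeadChip as a block or left out, median centering, neqc, the authors' log2 values, other filters, the methods' analysis of variance, array weights and each array left out. Promoters came from RefSeq (GRCm38.p6). Figures were drawn with Python 3.11.15 and matplotlib 3.10.9.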

Additional observations from a re-analysis of the deposited data

Results flagged for a closer look

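In 5 of 99 group and measure combinations tested, 1 sample stood far from the others of its group by Dixon's test at the 95% level; chance flags about 1 in 20. MTDNA_COXIII was 10.02 in the DRD2 acute LDOPA sample 4E, while the nearest other sample had 11.93. MTDNA_ND3 was 8.05 in the DRD1A chronic LDOPA sample 3C, the nearest other sample having 7.33. UQCRH was 8.39 in the DRD2 acute LDOPA sample 2C, above a next value of 8.02. NDUFS4 by probe 6040017 was 10.59 in the DRD1A acute LDOPA sample 1B, below a next value of 10.94. NDUFV1 was 9.94 in the DRD1A acute LDOPA sample 2D, below a next value of 10.81.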

How the results depend on the processing

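The count of 2 members called as varying among the groups became 0 with the BeadChip as a block, without BeadChip 1 and with neqc. It was also 0 with the methods' analysis of variance on 22 samples. It was 1 with no filter, with array weights and with that analysis on 23 arrays. It was 18 with median centering, and 4 with arrays 1D and 4A averaged (added after seeing the data). Over all probes the F test called 364 with median centering and 213 with 1D and 4A averaged, against 95 in the main fit. The member count stayed at 2 with 23 separate arrays (MTDNA_ND2 and NDUFA3) and with the detection filter (MTDNA_ND2 and MTDNA_ND3). COX5A was in neither set. The member count was 0 to 4 with 1 array left out, 4 without 2C and without 4A. COX5A lost its call without any of 1A, 1C, 1D, 1F, 2D, 2F, 3B, 3D, 3F, 4E or 4F (adjusted p up to 0.0769), and NDUFA3 without 17 of the 23 arrays, that is all but 1C, 1D, 1E, 2C, 4A and 4F (up to 0.109). In the acute line comparison, 2 members (MTDNA_ND2 and MTDNA_ND3) were called with the detection filter and with 1D and 4A averaged, 1 (NDUFA3) with the methods' analysis on 23 arrays, and 0 to 1 with 1 array left out, 1 without any of 1B, 1D, 2C, 3C, 4A or 4E. In the chronic line comparison 1 (NDUFA3) was called with the methods' analysis on 23 arrays. Between treatments in DRD1A, 14 were called with median centering, where NDUFA8 turned to 0.17 (adjusted p = 0.816). The other counts stayed at 0 under every alternative run. The nuclear minus mtDNA median difference was −0.60 within BeadChip 4 in the chronic line comparison (1.29 over all) and, between treatments in DRD1A, 0.98 within BeadChip 3 and −1.46 within BeadChip 4 (−0.10 over all). It was 1.56 to 2.20, 1.02 to 2.00, −0.34 to 0.08 and −0.05 to 0.79 in the 4 comparisons with 1 array left out. No paired analysis was possible because the labels give arrays no shared replicate numbers. The cause was not tested for any of these.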
